A study of Mus musculus with 24 samples.

Results

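The effect of PMX-53 on the renal cortex of diabetic mice was read from 12 of the 24 RNA-seq libraries of the series, 6 from diabetic mice given PMX-53 and 6 from diabetic mice given vehicle. PMX-53 is a cyclic peptide antagonist of the complement C5a receptor C5aR1. All mice were C57BL/6, with no substrain in the labels. Diabetic mice had received 5 daily intraperitoneal injections of streptozotocin at 55 mg/kg from 6 weeks of age, and both diabetic groups carry this toxin exposure. PMX-53 was given at 2 mg/kg in drinking water, whereas vehicle mice drank water alone, and mice were followed for 24 weeks. The other 12 libraries came from non-diabetic mice, which received citrate buffer in place of streptozotocin, 6 on PMX-53 and 6 on vehicle. Unless stated, "on PMX-53" and "on vehicle" below mean the diabetic groups. Nothing in the labels says which animals or litters the samples share, so each p-value covers the variation among these samples, and some of that may be technical.

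C5a is released when complement C5 is cleaved, and C5aR1 on myeloid cells and some epithelia couples it to inflammation. In diabetic kidney the proximal tubule reabsorbs an increased glucose load, and podocytes, mesangium and matrix are the classical sites of glomerular injury. The proximal tubule burns fatty acids in its mitochondria, makes glucose from lactate and glutamine, and follows the glucocorticoid rhythm and the circadian clock.

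Of the 48526 genes in the table, 15808 passed the expression filter and 4317 differed between PMX-53 and vehicle in diabetic mice (27.3% of those tested, edgeR quasi-likelihood F test, Benjamini-Hochberg adjusted p below 0.05). Of these, 2190 rose (13.9%) and 2127 fell (13.5%), and the median log2 fold change of all genes tested was 0.00. A list with about these shares of its members called does not stand out from all genes by its count. With libraries scaled to their totals only, that median moved by 0.12 and 79.5% of the called genes were higher, against 50.7% in the split above. The fold was at least 2 for 233 of the genes that rose and 284 of those that fell. For 1297 genes (8.2%) the lowest library of one group lay above the highest of the other, 619 of them higher (3.92%) and 678 lower (4.29%) on PMX-53. Most genes named below were picked for a small p or a large change in this same contrast. Separate ranges among them follow in part from that choice. In non-diabetic mice PMX-53 changed 0 genes by edgeR, with 1142 at an unadjusted p below 0.05, 4 by DESeq2 and 0 by limma voom. The difference between PMX-53 and vehicle itself differed between diabetic and non-diabetic mice, past the threshold, for 1489 genes (9.42%). Without diabetic vehicle replicate 4 it did so for 2242.

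The libraries held 10964992 to 22000895 counts, with 14885500 ± 2750220 on PMX-53 and 18719800 ± 2473800 on vehicle (SD, n = 6 each, exact permutation p = 0.0303, adjusted p = 0.0491). Mitochondrially encoded genes took 25.8% ± 2.56 of the counts on PMX-53 and 29.5% ± 2.14 on vehicle (exact p = 0.0260, adjusted p = 0.0491), a difference of -3.66 percentage points that was -0.983 with ribosomal RNA genes left out (exact p = 0.0303). Annotated ribosomal RNA took 21.7% ± 2.12 on PMX-53 and 24.8% ± 2.15 on vehicle (exact p = 0.0368, adjusted p = 0.0491). Mitochondrial ribosomal RNA genes were counted in both shares, so the shares overlap and are not separate measures. With one library left out, the p of total counts reached 0.0649 (above 0.05 without PMX-53 or vehicle replicate 2, 5 or 6), that of the mitochondrial share 0.0563 (without replicate 2 of either group) and that of the ribosomal RNA share 0.0714 (without PMX-53 replicate 2, 4, 5 or 6 or vehicle replicate 1, 2, 3 or 5). Genes detected at equal depth numbered 21132 ± 245 on PMX-53 and 21130.5 ± 229 on vehicle (exact p = 0.991). On the first principal component, with 52.4% of the variance, the vehicle libraries lay at 11.8 to 39.9, above the 18 others, and vehicle replicate 4 was the nearest of them to the PMX-53 libraries, at -3.02 to 5.58. In 590 genes (3.73%) the 6 diabetic vehicle libraries lay on one side of all 18 others, Nnt, Ide, Wdfy1 and Acad10 among them. A trait of the diabetic vehicle mice cannot be told apart from PMX-53 in this comparison. In bulk tissue, fewer cells of a type and less RNA per cell cannot be told apart either.

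**Figure D1:**
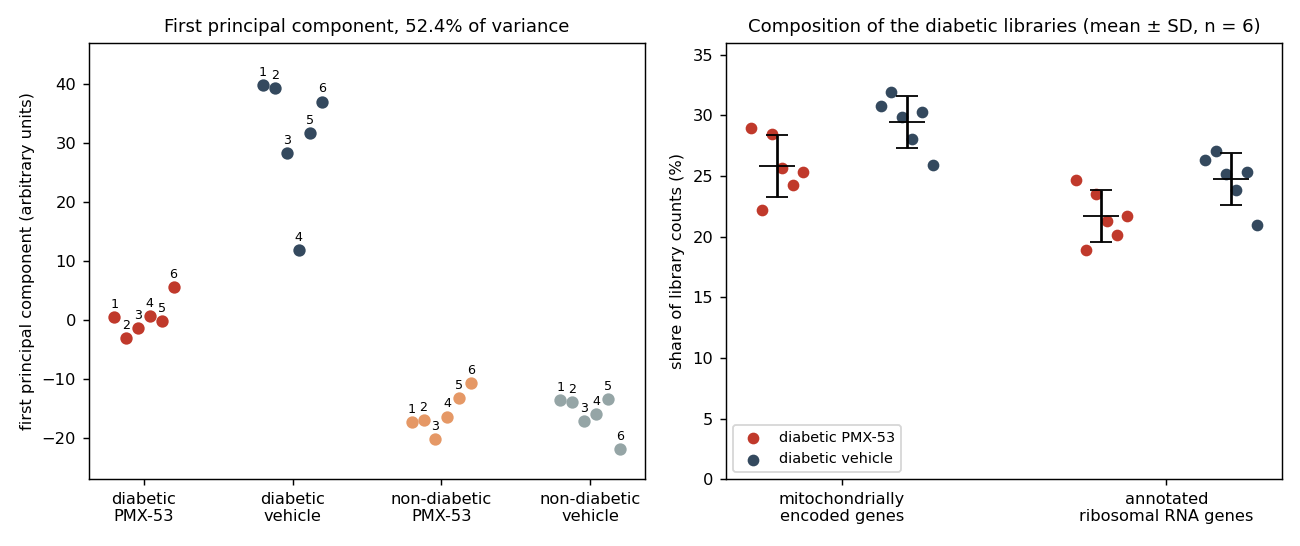
Left, position of each of the 24 libraries on the first principal component (points, with the replicate number), by group. Right, share of library counts in percent taken by mitochondrially encoded and by annotated ribosomal RNA genes in the 12 diabetic libraries, with mean ± SD (n = 6). Mitochondrial ribosomal RNA counts in both shares. Diabetic vehicle libraries lie at 11.8 to 39.9 on the component and the diabetic PMX-53 libraries at -3.02 to 5.58.

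Nnt, the mitochondrial transhydrogenase gene known to differ between C57BL/6 substrains, had 109, 113 and 121 CPM on PMX-53, against 242, 253 and 272 CPM on vehicle as the lowest, median and highest library, in scaled counts per library size (CPM) (log2 fold change -1.15 ± 0.04, adjusted p = 7.11e-17). The 12 non-diabetic libraries lay beside the PMX-53 libraries, with 106 ± 3.22 CPM in non-diabetic mice on PMX-53 and 107 ± 4.32 CPM in non-diabetic mice on vehicle (SD, n = 6). Acad10, which encodes a mitochondrial acyl-CoA dehydrogenase, had 57.1, 61.9 and 79.6 CPM on PMX-53, against 11.6, 15.1 and 16.4 CPM on vehicle (log2 fold change 2.16 ± 0.09, adjusted p = 4.36e-16). Ide, the insulin-degrading enzyme, had 127, 159 and 169 CPM on PMX-53, against 62.2, 66.2 and 76.5 CPM on vehicle (log2 fold change 1.16 ± 0.10, adjusted p = 1.88e-08). Wdfy1, an adaptor of Toll-like receptor signalling, fell to 26.1, 28.8 and 33.2 CPM on PMX-53, against 66.6, 76.7 and 79.6 CPM on vehicle (log2 fold change -1.35 ± 0.06, adjusted p = 2.59e-15). At these 4 genes the 6 libraries of each diabetic group lay close together and the groups did not overlap. They were kept because earlier results of these data showed the diabetic vehicle libraries apart there. Their separation is therefore the ground of their choice and not a separate finding.

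The target of the inhibitor was scarce and gave no call. C5ar1 (ENSMUSG00000049130, chromosome 7, 16246743 to 16259540 on GRCm38) had 5 to 26 counts in each diabetic library, 93 in all on PMX-53 and 104 on vehicle. Its levels overlapped, at 0.399, 1.01 and 1.73 CPM on PMX-53, against 0.522, 1.01 and 1.33 CPM on vehicle (log2 fold change 0.08 ± 0.34, adjusted p = 0.892), and the sign of the difference turned when PMX-53 replicate 2, vehicle replicate 1 or vehicle replicate 4 was left out. C5ar2, a further C5a receptor, had 33 counts on PMX-53 and 31 on vehicle, and Hc, which encodes C5, had 2 on PMX-53 and 12 on vehicle, 11 of them in a single library. Both were below the filter, so a difference in either was not detectable at this depth.

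Of 42 complement genes, 33 were tested, 7 rose and 4 fell (median log2 fold change 0.08, or 0.03 to 0.15 with one library left out; 7 rises and 2 falls with library totals only). C3, the central component cleaved by every activation route, fell 9.97-fold, the 12 libraries reading 14.2, 17.9 and 59.7 CPM on PMX-53, against 29.5, 272 and 537 CPM on vehicle (log2 fold change -3.32 ± 0.51, adjusted p = 8.89e-05). The groups overlapped through vehicle replicate 4, at 29.5 CPM. Masp1, a protease of the lectin route, fell to 1.23, 1.30 and 2.06 CPM on PMX-53, against 1.91, 3.92 and 4.89 CPM on vehicle (log2 fold change -1.29 ± 0.21, adjusted p = 5.12e-05), and again one vehicle library reached into the PMX-53 range. In the opposite direction, C1s1, a protease of the classical route, had 12.3, 14.2 and 17.7 CPM on PMX-53, against 8.67, 10.4 and 11.8 CPM on vehicle, with no overlap (log2 fold change 0.49 ± 0.12, adjusted p = 0.00226). C2, its substrate, rose by 0.53 ± 0.13 on the log2 scale (adjusted p = 0.00262). Cd59a, which blocks the terminal pore, fell by 0.30 on that scale (adjusted p = 0.00599). C4a and C4b are near-identical, and their counts are uncertain.

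**Figure D2:**
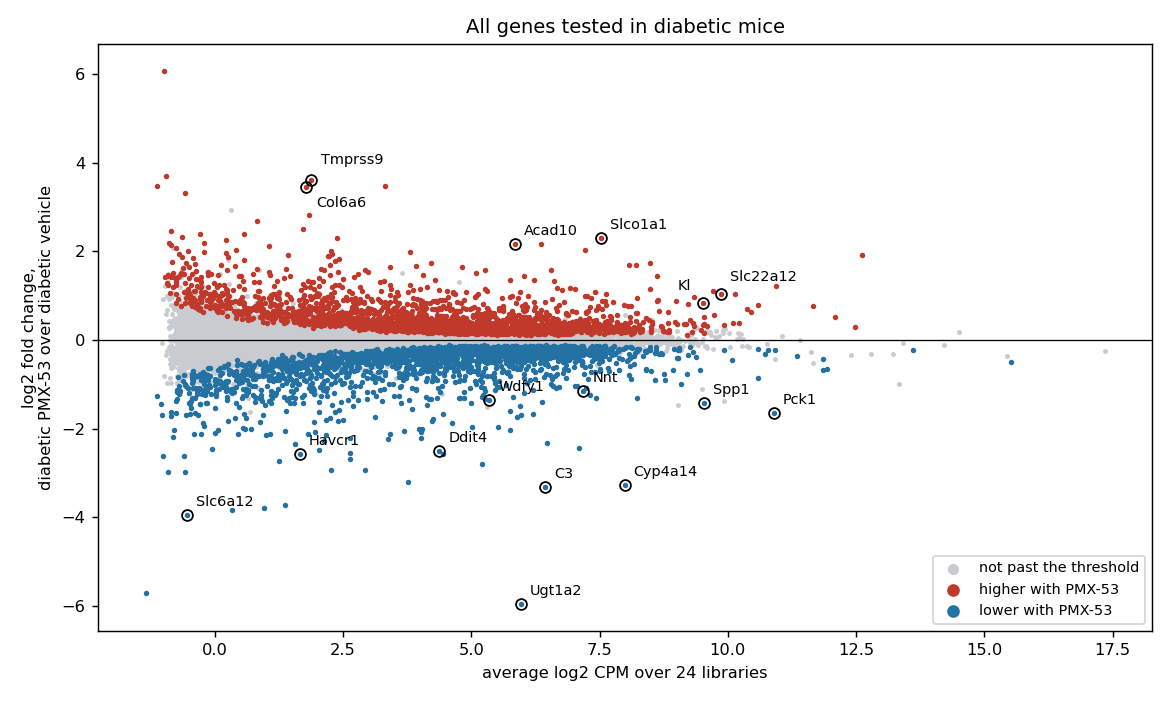
Log2 fold change of diabetic PMX-53 over diabetic vehicle (vertical axis) against average log2 CPM over the 24 libraries (horizontal axis) for the 15808 genes tested. Red and blue points are the 2190 and 2127 genes past the threshold, and circles mark genes named in the text, from Ugt1a2 at -5.96 to Tmprss9 at 3.61.

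The largest falls included glucuronosyltransferases, secreted proteins and a transcription factor. Ugt1a2, a glucuronosyltransferase, had 3.35, 3.64 and 5.11 CPM on PMX-53, against 19.1, 286 and 424 CPM on vehicle (log2 fold change -5.96 ± 0.57, adjusted p = 5.36e-07). Every vehicle library was above every PMX-53 library, although vehicle replicate 4 held the lowest vehicle value. Ugt1a1, which conjugates bilirubin and shares exons with Ugt1a2, fell 7.62-fold, at 1.28, 1.82 and 2.24 CPM on PMX-53, against 3.83, 13.9 and 23.3 CPM on vehicle (log2 fold change -2.93 ± 0.33, adjusted p = 1.75e-06). Because reads in shared exons can be split between them, the levels of both are uncertain. Gc, the vitamin D binding protein, read 9.82, 11.5 and 32.8 CPM on PMX-53, against 26.2, 121 and 163 CPM on vehicle (log2 fold change -2.80 ± 0.38, adjusted p = 2.36e-05). Ndnf, a secreted neurotrophic factor, had 0.246, 0.393 and 1.24 CPM on PMX-53, against 1.87, 6.35 and 17.4 CPM on vehicle (log2 fold change -3.73 ± 0.62, adjusted p = 0.000143). Bbox1, the last enzyme of carnitine synthesis, fell 6.64-fold without overlap (log2 fold change -2.73 ± 0.28, adjusted p = 3.02e-07). Cebpd, a transcription factor of the acute phase, had 1.74, 2.52 and 3.18 CPM on PMX-53, against 5.46, 13.9 and 23.03 CPM on vehicle (log2 fold change -2.54 ± 0.39, adjusted p = 7.02e-05). Of these 6 genes only Gc had groups that overlapped, through PMX-53 replicate 6 and vehicle replicate 4. The 6 were picked for their large falls, and 8.2% of all genes had separate ranges.

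Aldh1a1 and Rdh16, enzymes of retinoid metabolism, and Aldoc, a glycolytic aldolase, were among the falls with the smallest p. Aldh1a1 had 12.0, 18.1 and 21.7 CPM on PMX-53, against 38.3, 69.2 and 72.5 CPM on vehicle (log2 fold change -1.86 ± 0.16, adjusted p = 4.08e-08). Rdh16 had 98.6, 108 and 120.5 CPM on PMX-53, against 167, 234 and 258 CPM on vehicle (log2 fold change -1.07 ± 0.09, adjusted p = 1.02e-08). Aldoc had 4.34, 4.81 and 5.51 CPM on PMX-53, against 10.2, 12.0 and 15.5 CPM on vehicle (log2 fold change -1.36 ± 0.13, adjusted p = 8.03e-08). In all 3 the groups were separate, and vehicle replicate 4 was the lowest vehicle library for Aldh1a1, at 38.3 CPM, and for Rdh16, at 167 CPM. Their choice by small p favours separate groups, which 8.2% of all genes had.

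Large rises were found for a membrane protease, an anion transporter, a protease inhibitor and esterases. Tmprss9, a membrane serine protease, rose 12.2-fold, with 1.28, 3.90 and 4.95 CPM on PMX-53, against 0, 0.266 and 0.829 CPM on vehicle (log2 fold change 3.61 ± 0.37, adjusted p = 4.1e-07). Slco1a1, an organic anion transporter, had 93.0, 119 and 165 CPM on PMX-53, against 1.33, 5.19 and 123 CPM on vehicle (log2 fold change 2.29 ± 0.71, adjusted p = 0.0212). Pzp, an alpha-2-macroglobulin family inhibitor, had 33.3, 52.7 and 64.2 CPM on PMX-53, against 1.42, 3.51 and 55.0 CPM on vehicle (log2 fold change 2.16 ± 0.59, adjusted p = 0.00951). For Slco1a1 and Pzp 5 vehicle libraries were low and vehicle replicate 4 lay within the PMX-53 range, at 123 and 55.0 CPM; without it their log2 fold changes were 4.31 and 3.98. Fitted on the 12 diabetic libraries alone, neither gene passed the threshold. Cyp2d12, a cytochrome P450, had 72.0, 107 and 169 CPM on PMX-53, against 13.7, 27.5 and 45.0 CPM on vehicle, with no overlap (log2 fold change 2.04 ± 0.34, adjusted p = 0.000195). Ces2h, a carboxylesterase, rose 4.89-fold, also without overlap (log2 fold change 2.29 ± 0.31, adjusted p = 1.13e-05). Another esterase gene, Ces1g, had 0.754, 1.29 and 12.5 CPM on PMX-53, against 0.130, 0.834 and 2.41 CPM on vehicle (log2 fold change 2.01 ± 0.73, adjusted p = 0.0454), and this call was lost when PMX-53 replicate 1 or 6 or vehicle replicate 1, 2, 4, 5 or 6 was left out (log2 fold change 1.06 to 2.48 over the 12 omissions, lowest without PMX-53 replicate 1).

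Further rises concerned vessels, hormones and matrix. Aplnr, the apelin receptor of endothelial cells, rose to 5.33, 7.87 and 10.1 CPM on PMX-53, against 0.718, 1.64 and 3.51 CPM on vehicle (log2 fold change 1.95 ± 0.22, adjusted p = 8.46e-07). Kl, the klotho co-receptor of FGF23, had 787, 887 and 966 CPM on PMX-53, against 417, 494 and 554 CPM on vehicle (log2 fold change 0.84 ± 0.06, adjusted p = 1.14e-09). Pcdh12, an endothelial protocadherin, read 13.9, 14.8 and 18.6 CPM on PMX-53, against 6.03, 6.81 and 9.51 CPM on vehicle (log2 fold change 1.08 ± 0.11, adjusted p = 1.07e-07). None of these 3 genes had overlapping groups, but they were picked for a large rise or a small p, and 8.2% of all genes had separate ranges. B4galt5, a galactosyltransferase of glycolipid synthesis, rose 2.26-fold (log2 fold change 1.17 ± 0.10, adjusted p = 1.88e-08), and Arhgap10, a GTPase-activating protein, 1.43-fold (log2 fold change 0.52 ± 0.05, adjusted p = 1.88e-08), both without overlap. Cpxm1, a carboxypeptidase-like secreted protein, had 1.35 to 4.04 CPM on PMX-53, against 0.261 to 0.856 CPM on vehicle (log2 fold change 2.12 ± 0.26, adjusted p = 2.42e-06). Car3, a carbonic anhydrase, had 2.56, 10.2 and 14.2 CPM on PMX-53, against 1.15, 1.99 and 4.59 CPM on vehicle (log2 fold change 1.98 ± 0.55, adjusted p = 0.0109), and it missed the threshold under limma voom.

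**Figure D3:**
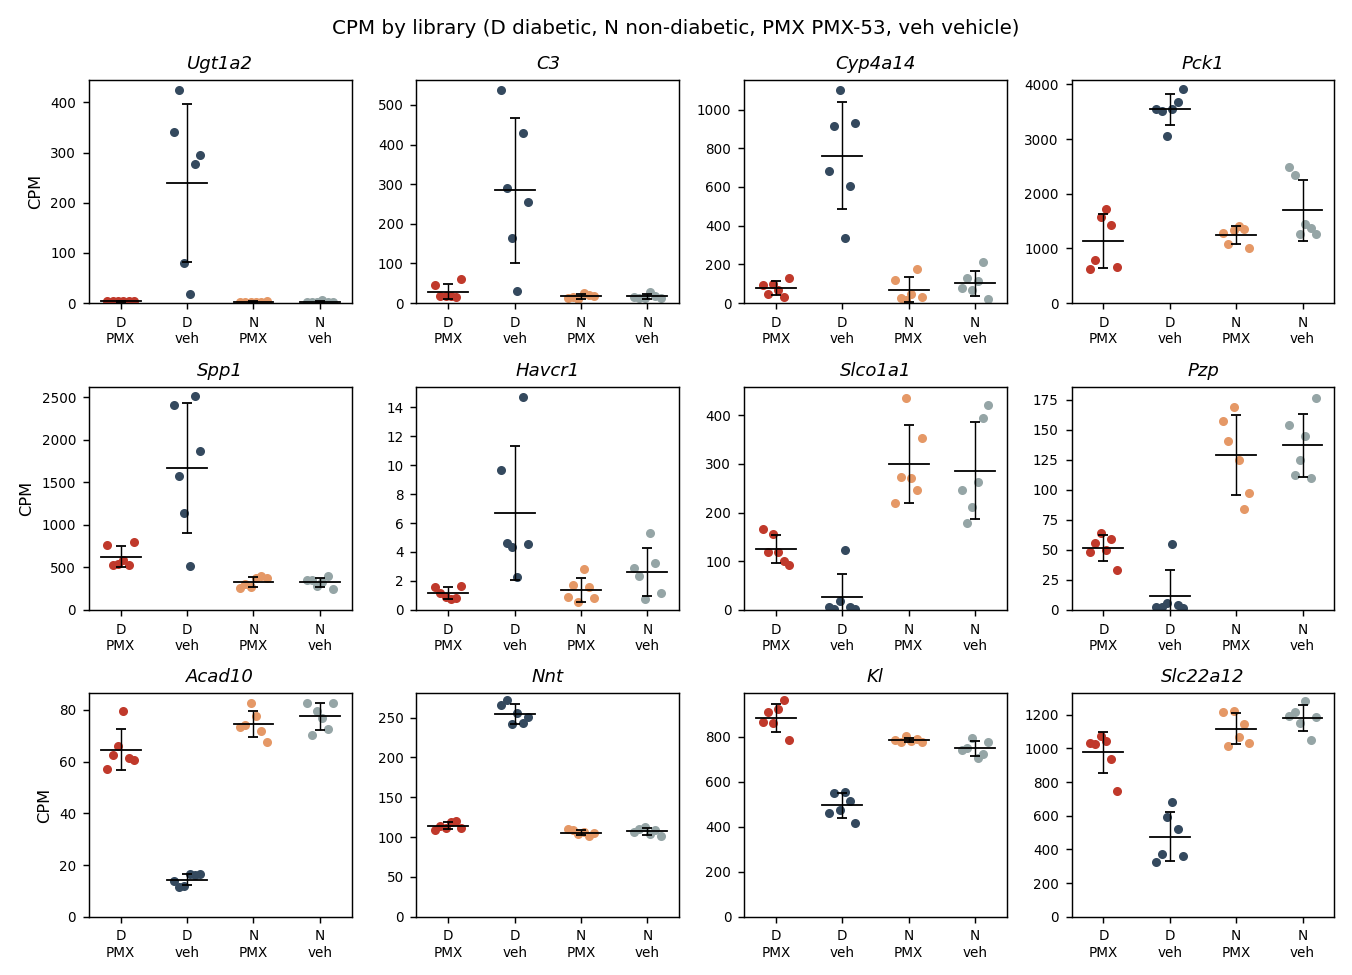
CPM of 12 genes in every library (points) with the group mean and SD (n = 6 each), diabetic PMX-53 and vehicle on the left of each panel and non-diabetic PMX-53 and vehicle on the right. Vehicle replicate 4 is the diabetic vehicle library at 29.5 CPM for C3 and at 123 CPM for Slco1a1, and for Nnt and Acad10 the 6 diabetic vehicle libraries lie apart from the 18 others.

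Genes that report tubular injury were mostly lower or not called. Of 31 tested, 1 rose and 11 fell (median -0.32, or -0.21 without vehicle replicate 1 or 2; 3 rises and 10 falls with library totals only). Havcr1, the kidney injury molecule KIM-1, had 0.765, 1.01 and 1.68 CPM on PMX-53, against 2.30, 4.58 and 14.7 CPM on vehicle (log2 fold change -2.57 ± 0.49, adjusted p = 0.000539). Spp1, the secreted phosphoprotein osteopontin, had 526, 561 and 799 CPM on PMX-53, against 516, 1725 and 2512 CPM on vehicle (log2 fold change -1.42 ± 0.26, adjusted p = 0.000394). The Havcr1 ranges were separate, whereas for Spp1 the vehicle minimum lay below every PMX-53 library. Lcn2, the iron-binding lipocalin NGAL, fell 5.06-fold, at 0.471, 1.16 and 3.04 CPM on PMX-53, against 3.51, 7.23 and 10.5 CPM on vehicle (log2 fold change -2.34 ± 0.45, adjusted p = 0.000559). Prom1, a progenitor and regenerating-tubule marker, fell by 0.76 ± 0.14 in log2 terms (adjusted p = 0.000353). Fga, a fibrinogen chain that injured tubules and liver both make, had 10.8, 18.8 and 32.2 CPM on PMX-53, against 24.0, 60.0 and 133 CPM on vehicle (log2 fold change -1.96 ± 0.37, adjusted p = 0.000553). The only list member that rose was Gdf15, a stress cytokine, at 0.60 on the log2 scale (adjusted p = 0.0129; chosen after its value was seen), and 2 or 3 members rose when PMX-53 replicate 3 or 4 or vehicle replicate 6 was left out.

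Secreted proteins that are best known from liver fell in the cortex as well. Of 10 liver markers, 7 were tested, 0 rose and 5 fell (median -1.17), with a summed level of 700.3 to 1160.1 CPM on PMX-53, against 953 to 1585 CPM on vehicle. Most of that sum was Apob, an apolipoprotein with 659 to 1105 CPM on PMX-53 and 761 to 1461 CPM on vehicle, which was not called (-0.20, adjusted p = 0.298). Serpina1a, the alpha-1-antitrypsin gene, had 1.86, 4.05 and 7.19 CPM on PMX-53, against 7.17, 20.8 and 30.5 CPM on vehicle (log2 fold change -2.24 ± 0.40, adjusted p = 0.000352). Trf, transferrin, fell 2.25-fold (log2 fold change -1.17 ± 0.20, adjusted p = 9.18e-05) and Apoa2, an apolipoprotein of high-density lipoprotein, 1.89-fold (log2 fold change -0.92 ± 0.16, adjusted p = 0.000103). The liver-restricted markers Ahsg and Cyp3a11 stayed at or below 0.160 CPM on PMX-53, with Ahsg at 0 in all 6 libraries, and reached 1.59 and 0.215 CPM on vehicle. Alb, serum albumin, was at 4.39 to 6.90 CPM on PMX-53, against 4.88 to 23.8 CPM on vehicle (adjusted p = 0.212). The part of other tissue in these falls was not tested. Of 17 tested genes of iron and haem handling, 2 rose and 5 fell (median -0.17). Cp, the ferroxidase ceruloplasmin, read 29.5, 42.9 and 55.7 CPM on PMX-53, against 75.7, 90.5 and 139.6 CPM on vehicle, with separate groups (log2 fold change -1.29 ± 0.19, adjusted p = 4.42e-05).

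Targets of the fatty acid sensor PPAR-alpha and genes of ketone body synthesis were mostly lower. Of 21 tested, 3 rose and 11 fell (median -0.59; 4 rises and 7 falls with library totals only). Cyp4a14, an omega-hydroxylase and a sensitive PPAR-alpha target, had 30.1, 81.8 and 131 CPM on PMX-53, against 338, 800.0 and 1099 CPM on vehicle (log2 fold change -3.28 ± 0.59, adjusted p = 0.000348). Its relative Cyp4a10 had 154, 222 and 262 CPM on PMX-53, against 354, 548 and 771 CPM on vehicle (log2 fold change -1.31 ± 0.26, adjusted p = 0.000916), and for both the highest PMX-53 library lay below the lowest vehicle library. Cyp4a31 fell by 0.80 ± 0.15 on the log2 scale (adjusted p = 0.000551), and reads can be shared between these near-identical Cyp4a copies. Pdk4, the kinase that shuts pyruvate out of the mitochondrion, was chosen after its values were seen. It had 20.02, 32.2 and 38.3 CPM on PMX-53, against 25.3, 155 and 295 CPM on vehicle (log2 fold change -2.32 ± 0.57, adjusted p = 0.00511), with an overlap between the groups. Oxct1, which starts the breakdown of ketone bodies, rose to 668, 730.3 and 751 CPM on PMX-53, against 470.3, 534 and 695 CPM on vehicle (log2 fold change 0.36 ± 0.07, adjusted p = 0.000493), and Acat1, a thiolase of ketone body breakdown, rose by 0.37 (adjusted p = 0.00154).

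Genes of mitochondrial fatty acid oxidation changed in both directions. Of 28 tested genes, 5 rose and 10 fell, with a median of -0.10 that turned to 0.01 with library totals only, where there were 5 rises and 4 falls. The largest rise was that of Acad10, described above, at 2.16 on the log2 scale. At Acad10 the diabetic vehicle libraries lay apart from all others. Eci1, an enoyl-CoA isomerase, had 36.8, 42.0 and 47.3 CPM on PMX-53, against 57.3, 67.7 and 92.0 CPM on vehicle (log2 fold change -0.76 ± 0.09, adjusted p = 2.6e-06), and Hadha, the alpha subunit of the trifunctional protein, fell by 0.47 ± 0.07 in log2 terms (adjusted p = 2.42e-05); neither overlapped. In peroxisomes 6 of 25 rose and 6 fell (median -0.06, or 0.06 with library totals only, where there were 8 rises and 3 falls). Acot3, an acyl-CoA thioesterase, had 9.74, 11.2 and 15.7 CPM on PMX-53, against 19.7, 41.6 and 64.6 CPM on vehicle (log2 fold change -1.82 ± 0.24, adjusted p = 1.72e-05), and Pex11a, a factor of peroxisome proliferation, 27.8, 29.2 and 33.7 CPM on PMX-53, against 40.3, 48.4 and 50.9 CPM on vehicle (log2 fold change -0.64 ± 0.09, adjusted p = 2.07e-05). Both were lower in every PMX-53 library than in any vehicle library. Pecr and Amacr, a peroxisomal reductase and a racemase of branched fatty acids, rose by 0.78 (adjusted p = 4.64e-05) and 1.00 (adjusted p = 9.56e-05).

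Genes of glucose production and of glycolysis fell more often than they rose. Of 19 tested genes of gluconeogenesis and of the fructose and polyol routes, 0 rose and 11 fell (median -0.27; 1 rise and 6 falls with library totals only). Pck1, the committed step of gluconeogenesis, had 619, 1110.2 and 1717 CPM on PMX-53, against 3058, 3548 and 3919 CPM on vehicle (log2 fold change -1.65 ± 0.24, adjusted p = 3.62e-05). The groups did not overlap, and Pck1 averaged 1243 ± 164 CPM in non-diabetic mice on PMX-53 and 1696 ± 562 CPM in non-diabetic mice on vehicle (SD, n = 6 each). In glycolysis 1 of 23 rose and 14 fell (median -0.29; 3 rises and 7 falls with library totals only), and without vehicle replicate 5 the number that rose was 2. Pklr, the liver and kidney pyruvate kinase, had 26.3, 31.1 and 35.7 CPM on PMX-53, against 43.7, 53.3 and 85.6 CPM on vehicle (log2 fold change -0.90 ± 0.12, adjusted p = 9.17e-06). Eno1, an enolase, fell by 0.54 ± 0.08 on the log2 scale (adjusted p = 9.17e-06), and the pyruvate kinase gene Pkm fell by 0.56 (adjusted p = 5.86e-05).

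Renal ammonia production uses glutamine carried in by Slc38a3 and the glutamate that Glud1 breaks down. Slc38a3 had 14.1, 29.8 and 37.0 CPM on PMX-53, against 68.7, 121 and 166 CPM on vehicle (log2 fold change -1.96 ± 0.25, adjusted p = 1.1e-05), and Glud1, glutamate dehydrogenase, had 288, 325 and 369 CPM on PMX-53, against 467, 519.8 and 643 CPM on vehicle (log2 fold change -0.70 ± 0.06, adjusted p = 2.85e-08). Every PMX-53 library was below every vehicle library in both. Of 18 tested genes of carbonic anhydrases and acid-base transport, 5 rose and 8 fell, with a median of -0.06 (0.05 with library totals only). Car5b, a mitochondrial carbonic anhydrase, fell by 0.58 ± 0.09 (adjusted p = 2.49e-05). Among 26 tested amino acid transporters 5 rose and 10 fell (median -0.16). Slc7a12, a carrier of small neutral amino acids, had 1.06, 3.74 and 9.75 CPM on PMX-53, against 12.6, 38.5 and 74.0 CPM on vehicle (log2 fold change -3.21 ± 0.50, adjusted p = 8.9e-05). Slc6a12, a betaine and GABA carrier, had 0, 0.0889 and 0.413 CPM on PMX-53, against 0.802, 1.66 and 3.28 CPM on vehicle, and its log2 fold change of -3.94 ± 0.51 became -4.68 without PMX-53 replicate 2 (adjusted p = 3.92e-06 with all libraries). Slc6a13, a related GABA carrier, fell by 0.55 ± 0.07 (adjusted p = 6.4e-06), and none of these 3 carriers overlapped between the groups.

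Most glucocorticoid-responsive genes fell. Of 15 tested, 0 rose and 11 fell, with a median of -1.30. Per1, a clock repressor that glucocorticoids also induce, had 28.7, 36.6 and 47.7 CPM on PMX-53, against 73.7, 130.5 and 175 CPM on vehicle (log2 fold change -1.73 ± 0.22, adjusted p = 8.9e-06). Sgk1, a kinase of sodium transport, had 28.9, 37.6 and 50.3 CPM on PMX-53, against 83.8, 111 and 219 CPM on vehicle (log2 fold change -1.68 ± 0.31, adjusted p = 0.000443). Tsc22d3, the leucine zipper protein GILZ, had 19.0, 24.0 and 27.7 CPM on PMX-53, against 30.5, 59.2 and 74.2 CPM on vehicle (log2 fold change -1.25 ± 0.24, adjusted p = 0.000598). These 3 genes were lower in every PMX-53 library than in any vehicle library. Ddit4, an inhibitor of mTOR complex signalling, had 8.39, 8.77 and 15.3 CPM on PMX-53, against 12.4, 54.6 and 108 CPM on vehicle (log2 fold change -2.51 ± 0.37, adjusted p = 5.59e-05), with an overlap at the lowest vehicle library. Lcn2 and Pdk4, described above, are members of the same list. Of the adrenal markers Cyp11a1, Cyp11b1 and Cyp11b2, enzymes of steroid synthesis, none was above 0.0638 CPM in any diabetic library.

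Clock genes changed in both directions. Of 19 tested, 2 rose and 7 fell, with a median of -0.11 that was 0.01 with library totals only. Npas2, an activator of the positive limb, had 3.27, 5.58 and 14.5 CPM on PMX-53, against 1.37, 2.09 and 2.44 CPM on vehicle (log2 fold change 1.88 ± 0.39, adjusted p = 0.001). Nr1d1, the repressor REV-ERB alpha, had 79.1, 89.4 and 113 CPM on PMX-53, against 46.1, 52.4 and 69.9 CPM on vehicle (log2 fold change 0.74 ± 0.14, adjusted p = 0.000452). Both were higher in every PMX-53 library. Cry1, a repressor of the negative limb, had 1.67, 2.11 and 2.58 CPM on PMX-53, against 4.70, 5.75 and 6.14 CPM on vehicle (log2 fold change -1.40 ± 0.26, adjusted p = 0.000341). Cry1 thus moved opposite to Npas2 and Nr1d1, again with no overlap. In non-diabetic mice none of these 3 genes passed the threshold. Their log2 fold changes there were -1.06 for Cry1, 0.50 for Nr1d1 and 0.51 for Npas2, and the adjusted p of the interaction was between 0.11 and 0.63.

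Promoter sequences from RefSeq on GRCm38.p6 are shown for 4 genes of these lists, because CLOCK, BMAL1 and NPAS2 bind the E-box CACGTG and the glucocorticoid receptor binds the pair GNACA and TGTNC set 3 bases apart, where N is any base. Each runs 5′ to 3′ from 250 bases before the annotated start to 50 after it, on the plus strand for Per1, Sgk1 and Npas2 and the minus strand for Cry1, and capitals mark the motifs found on either strand. Per1 had 2 annotated windows and Sgk1 had 6, and for each a window with the most matches to both motifs is printed.
Per1 chr11:69098699-69098998: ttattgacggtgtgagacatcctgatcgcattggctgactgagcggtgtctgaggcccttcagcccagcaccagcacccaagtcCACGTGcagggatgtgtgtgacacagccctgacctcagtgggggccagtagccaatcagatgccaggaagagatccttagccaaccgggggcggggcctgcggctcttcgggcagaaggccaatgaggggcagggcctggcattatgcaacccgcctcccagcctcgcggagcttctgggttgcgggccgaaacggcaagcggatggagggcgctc
Cry1 chr10:85185005-85185304: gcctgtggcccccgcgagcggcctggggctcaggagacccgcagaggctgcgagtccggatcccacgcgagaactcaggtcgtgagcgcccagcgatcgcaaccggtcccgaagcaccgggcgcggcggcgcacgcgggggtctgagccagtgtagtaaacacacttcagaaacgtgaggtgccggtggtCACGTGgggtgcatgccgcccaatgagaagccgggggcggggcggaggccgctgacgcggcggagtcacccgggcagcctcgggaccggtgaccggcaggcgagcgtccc
Sgk1 chr10:21993640-21993939: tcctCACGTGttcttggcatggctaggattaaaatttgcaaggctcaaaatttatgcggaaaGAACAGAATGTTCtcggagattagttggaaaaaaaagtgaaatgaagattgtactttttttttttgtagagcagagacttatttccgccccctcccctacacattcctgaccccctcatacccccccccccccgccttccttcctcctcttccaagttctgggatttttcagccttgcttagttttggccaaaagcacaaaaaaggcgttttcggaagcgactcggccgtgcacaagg
Npas2 chr1:39194022-39194321: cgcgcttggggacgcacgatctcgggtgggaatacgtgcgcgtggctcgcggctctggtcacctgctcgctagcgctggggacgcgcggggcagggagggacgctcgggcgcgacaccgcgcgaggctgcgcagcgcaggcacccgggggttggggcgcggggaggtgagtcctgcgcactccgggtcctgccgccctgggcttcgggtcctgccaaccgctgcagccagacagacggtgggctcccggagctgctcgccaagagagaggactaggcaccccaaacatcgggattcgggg
Per1 and Cry1, which fell, hold 1 E-box each. Sgk1, which fell, holds 1 E-box and 1 match to the glucocorticoid receptor motif. Npas2, which rose, holds neither motif in its window. Over all 32851 windows of 300 bases, 7.15% held the E-box and 0.475% the receptor motif. The printed Per1 and Sgk1 windows were picked for their motif matches, so their contents cannot be set against these shares. Counted by gene over any window, 5 of 16 matched clock genes (Bhlhe41, Ciart, Cry1, Per1 and Tef) held an E-box, and 3 of 14 matched glucocorticoid-responsive genes did (Fkbp5, Per1 and Sgk1), against 8.09% of 27025 genes. The receptor motif was found in Mt1 and Sgk1 of the 14, in 0 of the 16, and in 0.537% of all genes. A match describes the letters in the window and shows no binding.

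**Figure D4:**
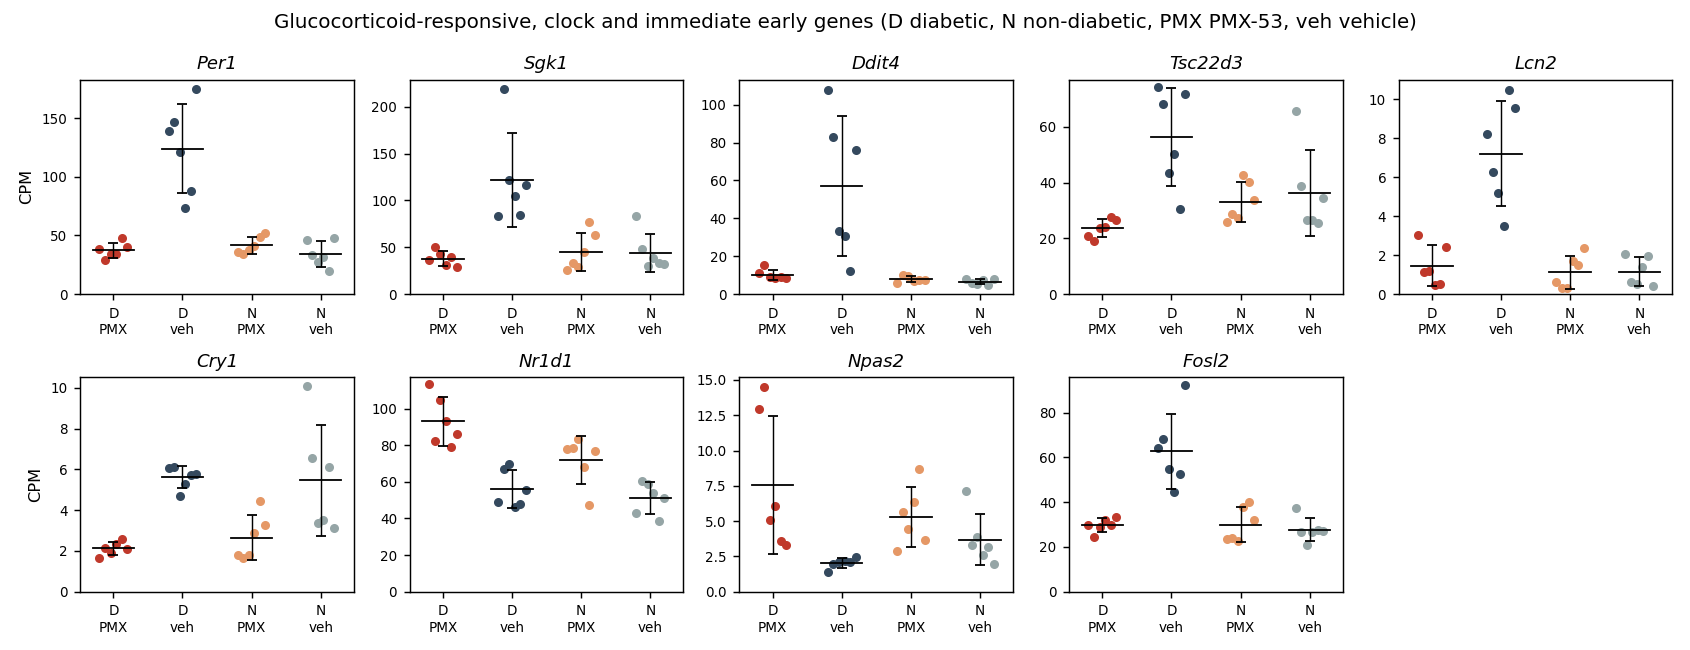
CPM of 9 glucocorticoid-responsive, clock and immediate early genes in every library (points) with group mean and SD (n = 6 each), diabetic PMX-53 and vehicle on the left and non-diabetic PMX-53 and vehicle on the right of each panel. Per1 lies at 28.7 to 47.7 CPM in diabetic PMX-53 libraries and at 73.7 to 175 CPM in diabetic vehicle libraries.

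Immediate early genes, which respond within minutes to growth factors and tissue handling, were lower or not called. Of 21 tested, 0 rose and 11 fell (median -0.44). Fosl2, a Fos family partner of AP-1, had 24.5, 29.9 and 33.1 CPM on PMX-53, against 44.4, 59.3 and 92.1 CPM on vehicle (log2 fold change -1.08 ± 0.17, adjusted p = 8.47e-05), and Klf6, a zinc finger factor induced by injury, had 24.3, 27.1 and 29.9 CPM on PMX-53, against 32.6, 44.1 and 56.0 CPM on vehicle (log2 fold change -0.70 ± 0.11, adjusted p = 9.05e-05). Neither overlapped. In the unfolded protein and integrated stress response 3 of 33 rose, or 5 without vehicle replicate 4, and 7 fell, with a median of -0.02 (0.11 with library totals only, where there were 5 rises and 3 falls). Ppp1r15a, which restarts translation, fell by 0.72 ± 0.11 (adjusted p = 3.44e-05) and Dnajb9, an endoplasmic reticulum co-chaperone, fell by 0.61 ± 0.10 on the log2 scale (adjusted p = 9.39e-05).

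Structural subunits of the respiratory chain fell by small amounts and in large numbers. Of 37 nuclear complex I genes 28 fell and 0 rose (median -0.28; 0 rises and 16 falls and a median of -0.17 with library totals only). Complexes II and III gave 10 falls and 0 rises of 14, or 0 rises and 6 falls with library totals only. In complex IV 11 of 13 fell and 0 rose (median -0.39; 0 rises and 7 falls and a median of -0.28 with library totals only), and in ATP synthase 11 of 18 fell and 0 rose (median -0.29). Cox7a2, a complex IV subunit, had 114, 124 and 133 CPM on PMX-53, against 152, 171 and 182 CPM on vehicle (log2 fold change -0.44 ± 0.05, adjusted p = 5.1e-07). Usmg5, a small subunit of ATP synthase, had 35.8, 39.9 and 43.5 CPM on PMX-53, against 51.9, 56.9 and 61.7 CPM on vehicle (log2 fold change -0.52 ± 0.06, adjusted p = 7.4e-07). Ndufa7 and Ndufv2 of complex I had log2 fold changes of -0.48 (adjusted p = 9.76e-07) and -0.42 (adjusted p = 3.56e-06). The single-gene shifts were well below 2-fold, but the ranges of 16, 8 and 8 genes of complexes I, IV and ATP synthase did not overlap, where 8.2% of all genes had separate ranges. By contrast, assembly factors of the chain, which build but do not form the complexes, gave 2 rises and 2 falls of 41 (median 0.00, or 0.11 with library totals only, where there were 7 rises and 1 fall; 5 rises without vehicle replicate 4, 1 without PMX-53 replicate 2 and 4 falls without PMX-53 replicate 3). Cox15, an enzyme of haem A synthesis, rose by 0.38 ± 0.07 (adjusted p = 0.000167), and Pet100, a complex IV chaperone, fell by 0.36 ± 0.11 (adjusted p = 0.0152).

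The same low, broad shift was seen for cytosolic ribosomal protein genes, of which 67 of 77 fell and 0 rose (median -0.27; 0 rises and 34 falls and a median of -0.15 with library totals only). Rpl31 had 64.0, 67.8 and 72.4 CPM on PMX-53, against 78.7, 89.3 and 103 CPM on vehicle, without overlap (log2 fold change -0.41 ± 0.06, adjusted p = 1.08e-05). Mitochondrial ribosomal protein genes gave 2 rises and 15 falls of 75, with a median of -0.07 that turned to 0.05 with library totals only, where there were 13 rises and 4 falls, and 5 rises without vehicle replicate 4, against 1 without any one of PMX-53 replicates 1, 2, 5 and 6 or of the other vehicle replicates. Mrpl20 of the large subunit fell by 0.31 ± 0.06 on the log2 scale (adjusted p = 0.000342), a call lost with library totals only. Proteasome subunits gave 0 rises and 10 falls of 34, with a median of -0.06 that turned to 0.05 with library totals only, where there were 3 rises and 1 fall, with 6 falls without PMX-53 replicate 6 and 2 rises without PMX-53 replicate 6 or vehicle replicate 3 or 4. The TCA cycle gave 0 rises and 10 falls of 25 (median -0.14; 1 rise and 2 falls and a median of -0.02 with library totals only). Mdh1, the cytosolic malate dehydrogenase, had 579.7, 610.1 and 662 CPM on PMX-53, against 763, 804 and 841 CPM on vehicle (log2 fold change -0.38 ± 0.05, adjusted p = 3.19e-06), and Sdhd, a membrane anchor of complex II, 130.1, 140.1 and 147 CPM on PMX-53, against 159, 176 and 186 CPM on vehicle (log2 fold change -0.32 ± 0.05, adjusted p = 1.38e-05). Both pairs of ranges were separate. For cardiolipin, the phospholipid of the inner membrane, 0 of 15 rose and 5 fell, with a median of 0.00 (0.11 with library totals only, where there were 2 rises and 1 fall), and 2 or 3 fell without vehicle replicate 2 or PMX-53 replicate 1, 3 or 5, and 1 rose without vehicle replicate 6. Lclat1, an acyltransferase of its remodelling, fell by 0.27 ± 0.05 (adjusted p = 0.000237), also lost with library totals only.

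Several properties of the libraries moved in the same comparison as these lists. The mitochondrially encoded and ribosomal RNA shares, which overlap through mitochondrial ribosomal RNA, were lower on PMX-53, as given above. Of 13 mitochondrially encoded mRNAs 7 were tested, all 7 with a negative log2 fold change (median -0.31). Of these 1 passed the threshold, mt-Co1 of complex IV (log2 fold change -0.23 ± 0.08, adjusted p = 0.0399). With one library left out 0 to 5 fell, 5 without PMX-53 replicate 3, 2 without PMX-53 replicate 1 or vehicle replicate 4, and 0 without PMX-53 replicate 2, 5 or 6 or vehicle replicate 1, 2, 3 or 5. Of 9 small cytoplasmic and nuclear RNAs 5 fell and 0 rose (median -0.65), with a summed level of 4874 to 8881 CPM on PMX-53, against 7497 to 11439 CPM on vehicle. Rpph1, the RNA of RNase P, fell by 0.36 ± 0.10 (adjusted p = 0.00759), Rmrp, that of RNase MRP, fell by 0.46 ± 0.14 (adjusted p = 0.0126), and Rn7sk, which restrains transcription elongation, fell by 0.65 ± 0.22 (adjusted p = 0.0288). The small RNA count dropped to 2 or 3 without PMX-53 replicate 2, 4, 5 or 6 or vehicle replicate 2, 3, 5 or 6, and the Rn7sk call was lost without PMX-53 replicate 2, 4 or 5 or vehicle replicate 2 or 5. Nuclear long noncoding RNAs gave 2 rises and 1 fall of 6 (median 0.10), with 0 or 1 rise without any one library other than PMX-53 replicate 4 and vehicle replicate 4, and 0 falls without vehicle replicate 1 or 2. Among the 3152 shortest genes, with a median exonic length of 1422 bases on GENCODE M21, 281 rose and 506 fell, and the median length was 1569 bases in complex I and 1770 bases in cytosolic ribosomal proteins, against 4067 over all tested genes with a length. The median log2 fold change of those shortest genes was -0.04, against -0.28 in complex I and -0.27 in cytosolic ribosomal proteins. The part of RNA composition and of gene length in the ribosomal and respiratory chain counts was not tested.

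**Figure D5:**
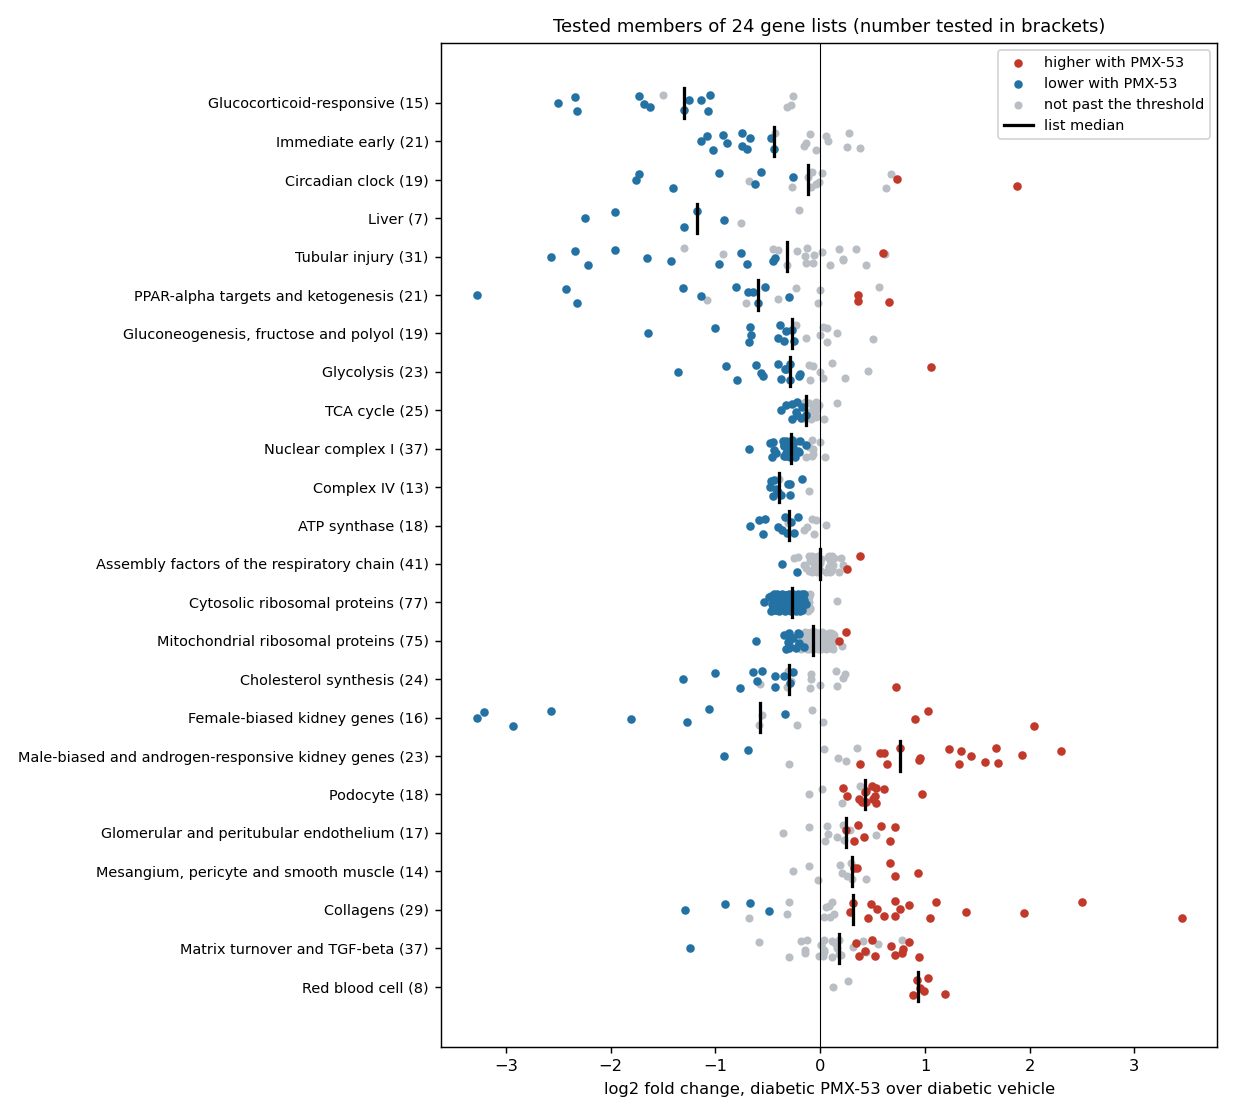
Log2 fold change of diabetic PMX-53 over diabetic vehicle for each tested member (points) of 24 gene lists, with the list median as a black bar and the number tested in brackets. Red and blue points passed the threshold, as for 14 of 18 podocyte genes that were higher and 67 of 77 cytosolic ribosomal protein genes that were lower.

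Cholesterol genes were mostly lower or not called. Of 24 tested 1 rose and 11 fell (median -0.30; 5 rises and 8 falls with library totals only), and 2 or 3 rose without PMX-53 replicate 6 or vehicle replicate 4 or 6. Ebp, a sterol isomerase, had 20.9, 26.8 and 31.0 CPM on PMX-53, against 40.4, 43.6 and 51.9 CPM on vehicle (log2 fold change -0.77 ± 0.08, adjusted p = 4.03e-07), without overlap. In fatty acid and triglyceride synthesis 2 of 22 rose and 6 fell, with a median of -0.08 (0.03 with library totals only, where there were 4 rises and 3 falls), and 1 rose without PMX-53 replicate 1 or 3 or vehicle replicate 2. The elongases Elovl2 and Elovl6 had 14.3 to 24.2 CPM on PMX-53, against 23.8 to 43.9 CPM on vehicle (log2 fold change -1.05 ± 0.14, adjusted p = 1.38e-05) and 18.2 to 24.2 CPM on PMX-53, against 29.4 to 38.4 CPM on vehicle (log2 fold change -0.67 ± 0.14, adjusted p = 0.000802), with an overlap for Elovl2 alone. Of 20 glutathione S-transferases 3 rose and 9 fell (median -0.15), with a summed level of 874 to 1039 CPM on PMX-53, against 1177 to 1373 CPM on vehicle. Gstm5 had 57.4, 63.6 and 73.9 CPM on PMX-53, against 87.8, 104 and 119.6 CPM on vehicle (log2 fold change -0.68 ± 0.08, adjusted p = 5.07e-07), and Mgst3, a microsomal relative, fell by 0.93 ± 0.10 (adjusted p = 7.11e-07).

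Genes that differ between male and female mouse kidney were called mostly in opposite directions. Of 23 male-biased and androgen-responsive genes 16 rose and 2 fell (median 0.76; 16 rises and 1 fall with library totals only), while of 16 female-biased genes 3 rose and 8 fell (median -0.57, or -0.28 without vehicle replicate 4). The number of male-biased genes that fell was 1 without PMX-53 replicate 2, 3, 4 or 5 or vehicle replicate 2 or 6. The male-biased list summed to 10289 to 14885 CPM on PMX-53. On vehicle its sum had a median of 3858 CPM but ran from 3555 to 12585 CPM, into the PMX-53 range. Ranges were separate for 2 of the 23 male-biased and 6 of the 16 female-biased genes, where 8.2% of all genes had separate ranges. Timd2, a ferritin receptor, had 43.4, 52.8 and 61.2 CPM on PMX-53, against 21.7, 27.0 and 36.1 CPM on vehicle (log2 fold change 0.95 ± 0.10, adjusted p = 4.6e-07), and Acsm2, a medium-chain acyl-CoA synthetase, had 2359.5, 3159 and 3714 CPM on PMX-53, against 1529, 1658 and 2528 CPM on vehicle (log2 fold change 0.76 ± 0.11, adjusted p = 2.36e-05). Timd2 had separate groups and Acsm2 did not. Among female-biased genes, Prlr, the prolactin receptor, had 7.19, 8.31 and 15.8 CPM on PMX-53, against 20.2, 51.3 and 113 CPM on vehicle (log2 fold change -2.57 ± 0.43, adjusted p = 0.000188), and Nccrp1, an F-box protein, had 0.765, 2.42 and 4.17 CPM on PMX-53, against 10.2, 16.7 and 28.2 CPM on vehicle (log2 fold change -2.93 ± 0.35, adjusted p = 4.31e-06). Both were lower in all PMX-53 libraries than in any vehicle library. Slc7a12 and Cyp4a14, which fell, and Cyp2d12, which rose, are members of the same list.

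Transporters of the proximal tubule changed in both directions. Of 15 glucose transporters 2 rose and 5 fell, with a median of -0.09 (0.03 with library totals only, where there were 2 rises and 3 falls). Slc5a2, the main luminal glucose carrier SGLT2, had 296, 489 and 574 CPM on PMX-53, against 126, 260.4 and 371 CPM on vehicle (log2 fold change 0.89 ± 0.20, adjusted p = 0.0022). Slc5a1, the downstream carrier SGLT1, had 38.3, 48.2 and 75.5 CPM on PMX-53, against 66.8, 107 and 134 CPM on vehicle (log2 fold change -0.96 ± 0.18, adjusted p = 0.000549). The SGLT2 gene was thus higher and the SGLT1 gene lower with PMX-53, with overlapping groups in both. Slc5a10, a mannose and fructose carrier, fell 2.49-fold (log2 fold change -1.32 ± 0.14, adjusted p = 8.04e-07), and Slc2a12, the facilitative carrier GLUT12, rose 1.78-fold (log2 fold change 0.83 ± 0.10, adjusted p = 1.23e-06), both without overlap. Of 38 organic ion transporters 13 rose and 9 fell (median 0.17, or 0.11 without vehicle replicate 1). Slc22a12, the urate carrier URAT1, had 750.0, 1029.8 and 1076 CPM on PMX-53, against 327, 446 and 683 CPM on vehicle (log2 fold change 1.04 ± 0.14, adjusted p = 6.76e-06), and Abcb1b, a P-glycoprotein, fell by 1.04 ± 0.16 (adjusted p = 3.71e-05).

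Sodium and chloride transport gave 8 rises and 7 falls of 32, with a median of -0.04 (0.08 with library totals only). Slc9a8, a sodium-proton exchanger, had 85.4, 104 and 117 CPM on PMX-53, against 50.8, 55.0 and 83.5 CPM on vehicle (log2 fold change 0.80 ± 0.10, adjusted p = 3.51e-06). Its ranges were separate. Water, calcium and vitamin D handling gave 7 rises and 5 falls of 27 (median 0.06; 9 rises and 2 falls with library totals only), with 3 falls without PMX-53 replicate 2, 4 or 6 or vehicle replicate 1 or 2. Aqp4, a basolateral water channel, had 1.73, 8.52 and 10.1 CPM on PMX-53, against 20.7, 25.5 and 35.5 CPM on vehicle, without overlap (log2 fold change -2.01 ± 0.40, adjusted p = 0.000916). Renin-angiotensin and peptidase genes gave 4 rises and 6 falls of 18 (median 0.09). Agt, angiotensinogen, had 23.9, 29.7 and 35.9 CPM on PMX-53, against 35.9, 77.8 and 85.6 CPM on vehicle (log2 fold change -1.30 ± 0.15, adjusted p = 3.97e-06), where the highest PMX-53 library lay just under vehicle replicate 4. Dpp4, the incretin-cleaving peptidase, had 48.3, 54.6 and 56.8 CPM on PMX-53, against 77.2, 81.0 and 94.0 CPM on vehicle (log2 fold change -0.62 ± 0.06, adjusted p = 2.42e-07), and both genes were lower in every PMX-53 library than in any vehicle library.

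Podocyte genes were higher. Of 18 tested 14 rose and 0 fell (median 0.43), with 1 fall without vehicle replicate 4. In non-diabetic mice the median of this list was 0.22, with 0 genes called. Synpo, the actin-binding synaptopodin, had 50.3, 61.1 and 74.2 CPM on PMX-53, against 38.0, 44.0 and 49.2 CPM on vehicle (log2 fold change 0.50 ± 0.09, adjusted p = 0.000257). No PMX-53 library was as low as a vehicle library. Of 17 endothelial genes 7 rose and 0 fell (median 0.25; 12 rises and 0 falls with library totals only), and of 14 genes of mesangium, pericytes and smooth muscle 5 rose and 0 fell (median 0.30; 1 fall without PMX-53 replicate 5). Kdr, the main VEGF receptor, had 75.7, 80.1 and 98.6 CPM on PMX-53, against 46.5, 53.9 and 70.9 CPM on vehicle (log2 fold change 0.58 ± 0.08, adjusted p = 1.67e-05), and Egfl7, an endothelial secreted factor, rose by 0.41 ± 0.07 (adjusted p = 0.000126). Pdgfrb, the pericyte receptor for PDGF-B, had 42.2, 48.8 and 60.0 CPM on PMX-53, against 23.2, 30.2 and 38.2 CPM on vehicle (log2 fold change 0.71 ± 0.15, adjusted p = 0.00113), and Mcam, a vascular adhesion molecule, rose by 0.67 ± 0.16 (adjusted p = 0.00246). All 4 had separate groups.

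Matrix genes were more often higher than lower. Of 29 collagens 16 rose and 4 fell (median 0.31). Col1a1, a chain of fibrillar type I collagen, had 18.8, 28.8 and 47.4 CPM on PMX-53, against 9.39, 13.8 and 21.4 CPM on vehicle (log2 fold change 1.11 ± 0.20, adjusted p = 0.000334), with overlap, and Col14a1, which binds fibrils, had 68.2, 77.9 and 103 CPM on PMX-53, against 36.5, 47.2 and 61.8 CPM on vehicle (log2 fold change 0.76 ± 0.12, adjusted p = 4.38e-05). Of the microfibrillar type VI chains, Col6a3 had 28.8, 32.3 and 43.8 CPM on PMX-53, against 16.4, 20.8 and 24.0 CPM on vehicle (log2 fold change 0.71 ± 0.10, adjusted p = 1.37e-05) and Col6a6 rose 10.97-fold (log2 fold change 3.46 ± 0.63, adjusted p = 0.000358), neither with overlap. Col19a1 had 0.559, 1.55 and 3.14 CPM on PMX-53, against 0.0635, 0.146 and 1.08 CPM on vehicle (log2 fold change 2.50 ± 0.56, adjusted p = 0.00185), and without vehicle replicate 4 its log2 fold change was 3.45. Col12a1, a fibril-associated collagen, fell to 10.9, 13.8 and 19.8 CPM on PMX-53, against 21.4, 37.6 and 48.6 CPM on vehicle (log2 fold change -1.29 ± 0.20, adjusted p = 7.03e-05), so the collagens did not all move one way. Laminin and basement membrane genes gave 8 rises and 3 falls of 23 (median 0.13; 13 rises and 0 falls with library totals only), and the falls numbered 0 or 1 without PMX-53 replicate 1, 4 or 5 or vehicle replicate 2. Lama4 of the vessel wall had 5.24, 7.28 and 9.52 CPM on PMX-53, against 2.64, 3.59 and 6.12 CPM on vehicle (log2 fold change 0.89 ± 0.16, adjusted p = 0.000228), and Hspg2, perlecan, rose by 0.42 ± 0.08 (adjusted p = 0.000384). Matrix turnover and TGF-beta genes gave 11 rises and 1 fall of 37 (median 0.18), with 0 falls without PMX-53 replicate 1, 3, 4 or 5 or vehicle replicate 1, 2 or 5 and 2 without PMX-53 replicate 2 or 6 or vehicle replicate 3 or 4. Timp3, a metalloproteinase inhibitor, had 964, 1541 and 1698 CPM on PMX-53, against 691, 746 and 1174 CPM on vehicle (log2 fold change 0.78 ± 0.14, adjusted p = 0.000133), and Smad7, the inhibitory SMAD, rose by 0.52 ± 0.09 (adjusted p = 8.13e-05).

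Immune cell genes were scarce. B and plasma cell genes gave 5 rises and 0 falls of 9 tested (median 0.74), with 3 rises without PMX-53 replicate 1 or 2 or vehicle replicate 2. The list was mixed, with 6 positive and 3 negative log2 fold changes, the lowest at -1.02. Cd79b, of the B cell receptor, had 0.496, 0.624 and 0.825 CPM on PMX-53, against 0.0635, 0.261 and 0.321 CPM on vehicle (log2 fold change 1.45 ± 0.28, adjusted p = 0.000428), and Igha, the IgA heavy chain, had 19.7, 52.4 and 70.2 CPM on PMX-53, against 7.11, 17.5 and 34.7 CPM on vehicle (log2 fold change 1.36 ± 0.34, adjusted p = 0.00567). Of 6 T and NK cell genes 2 rose, or 1 without PMX-53 replicate 1 or 2 or vehicle replicate 2, 3 or 5, and 0 fell (median 0.63; 4 rises and 0 falls with library totals only). Cd8a had 0.348 to 1.65 CPM on PMX-53, against 0.190 to 0.588 CPM on vehicle (log2 fold change 1.22 ± 0.36, adjusted p = 0.0132) and missed the threshold under limma voom. Macrophage genes gave 1 rise and 2 falls of 16, with a median of -0.10 (0.01 with library totals only). Cx3cr1, the fractalkine receptor, rose by 0.90 ± 0.20 (adjusted p = 0.0013), a call lost with a replicate block, and Cd14, an endotoxin co-receptor, fell by 0.79 ± 0.16 (adjusted p = 0.000566). Of 12 neutrophil and mast cell markers 3 were tested and none passed, and of these Kit is also a member of the intercalated cell list. Markers of myeloid cells, in which C5aR1 is best known, thus gave a small number of calls. Several were at low levels, such as Cd68 at 1.57 to 2.56 CPM on PMX-53 and 0.979 to 2.46 CPM on vehicle, so differences could go undetected.

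Interferon-response genes gave 3 rises and 9 falls of 33, with a median of -0.09 (0.03 with library totals only). Ddx58, the RNA sensor RIG-I, had 25.2, 27.5 and 28.8 CPM on PMX-53, against 33.9, 41.3 and 42.4 CPM on vehicle (log2 fold change -0.52 ± 0.06, adjusted p = 7.83e-07), and Irf7, an interferon regulatory factor, fell by 0.84 ± 0.14 (adjusted p = 6.7e-05), whereas Irf8, a myeloid and B cell factor, had 15.4, 16.7 and 18.3 CPM on PMX-53, against 6.19, 10.6 and 12.4 CPM on vehicle (log2 fold change 0.73 ± 0.14, adjusted p = 0.000415). Ddx58 and Irf8 had separate groups in opposite directions. Antigen presentation gave 5 rises and 2 falls of 21 (median 0.09; 5 rises and 1 fall with library totals only), with 3 rises without vehicle replicate 3 or 6 and 1 fall without PMX-53 replicate 2, 3 or 5 or vehicle replicate 1 or 6. B2m, the light chain of class I molecules, fell by 0.78 ± 0.10 (adjusted p = 5.22e-06) and the class I gene H2-Q7 rose by 0.63 ± 0.12 (adjusted p = 0.000333). Red blood cell genes gave 6 rises and 0 falls of 8 (median 0.94), with a summed level of 416 to 636 CPM on PMX-53, against 159 to 448 CPM on vehicle. Alas2, the erythroid enzyme of haem synthesis, had 13.9, 18.7 and 28.6 CPM on PMX-53, against 4.24, 8.52 and 14.7 CPM on vehicle (log2 fold change 1.19 ± 0.30, adjusted p = 0.00504). The part of blood in the samples was not tested.

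Tubule segment markers are given to show what the cortex samples held. Proximal S1 and S2 markers gave 3 rises and 3 falls of 14, with a median of -0.07 (0.04 with library totals only, where there were 4 rises and 1 fall). Lrp2, the endocytic receptor megalin, had 4842, 5559.8 and 5892 CPM on PMX-53, against 4078, 4459.5 and 4938 CPM on vehicle (log2 fold change 0.29 ± 0.06, adjusted p = 0.00147), and Slc34a1, the phosphate carrier, rose by 0.51 ± 0.12 (adjusted p = 0.00191). S3 markers gave 5 rises and 3 falls of 10 (median 0.16, or 0.36 without vehicle replicate 4; 5 rises and 1 fall with library totals only, 2 rises in the 12 diabetic libraries fitted alone). The organic anion carrier Slc22a7 rose by 1.57 (adjusted p = 0.00852), the aminoacylase Acy3 by 0.96 (adjusted p = 0.00717) and the phospholipid flippase Atp11a by 0.70 (adjusted p = 0.00471). The S3 lactate carrier Slc5a8 fell by 0.47 ± 0.11 (adjusted p = 0.00377), a call lost with library totals only, and the protease Napsa fell by 0.68 ± 0.16 (adjusted p = 0.00377). Loop of Henle markers gave 0 rises and 4 falls of 11 (median -0.13, or -0.06 to -0.20 with one library left out). Slc12a1, the bumetanide-sensitive carrier, had 292, 488 and 615 CPM on PMX-53, against 593, 772 and 1143 CPM on vehicle (log2 fold change -0.77 ± 0.18, adjusted p = 0.00241), and Ptger3, a prostaglandin E2 receptor, had 17.8, 26.4 and 33.9 CPM on PMX-53, against 34.3, 46.9 and 52.9 CPM on vehicle (log2 fold change -0.82 ± 0.14, adjusted p = 0.000159). Distal convoluted and connecting tubule markers gave 3 rises of 9 and intercalated cell markers 3 of 11, with 0 falls in each. Their medians were 0.15 and 0.15, against 0.29 and 0.21 in non-diabetic mice, where 0 genes of either list were called. Principal cell markers gave 0 rises and 4 falls of 10 (median -0.15, or -0.07 without vehicle replicate 2; 0 rises and 2 falls with library totals only), with 2 falls without PMX-53 replicate 6 or vehicle replicate 2. Aqp2, the vasopressin-regulated water channel, had 47.5, 60.1 and 91.8 CPM on PMX-53, against 87.4, 111 and 166 CPM on vehicle (log2 fold change -0.87 ± 0.28, adjusted p = 0.025), and this call was lost without either of those libraries and with library totals only. Elf5, a principal cell transcription factor, had 0.124 to 0.430 CPM on PMX-53, against 0.825 to 2.42 CPM on vehicle, without overlap (log2 fold change -2.13 ± 0.54, adjusted p = 0.005).

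Most defining markers of papilla, urothelium, muscle, adrenal and fat were low or at 0, apart from Slc5a3 and Lpl, which kidney also expresses. Of 12 papilla and urothelium markers 4 were tested and 1 fell, or 2 without vehicle replicate 6, and the list summed to 177 to 309 CPM on PMX-53, against 292 to 558 CPM on vehicle, nearly all of it from the inositol carrier Slc5a3. The urothelial gene Upk3a was at 0 to 0.294 CPM on PMX-53 and 0.0444 to 1.70 CPM on vehicle. Of the same list, Slc14a2 reached 0.320 CPM on PMX-53 and 4.53 CPM on vehicle, and Psca 0.588 CPM on PMX-53 and 2.35 CPM on vehicle. Fxyd3 reached 0.184 CPM on PMX-53 and 0.162 CPM on vehicle. The part of papilla and urothelium in the samples was not tested. Of 8 muscle markers 1 was tested, and of 8 adrenal markers 1, with 0 calls in each, or 1 fall of the adrenal gene Star without PMX-53 replicate 5 or vehicle replicate 3, 4 or 5. Of 9 fat markers 2 were tested, while Lep and Retn were at 0 in all 12 libraries and Adipoq reached 0.160 CPM on PMX-53. Lpl, lipoprotein lipase, which kidney tubules also make, had 262, 282 and 338 CPM on PMX-53, against 53.3, 61.8 and 206 CPM on vehicle, with separate groups (log2 fold change 1.74 ± 0.26, adjusted p = 5.58e-05). Fabp4, which capillary endothelium also expresses, fell by 0.47 on the log2 scale (adjusted p = 0.00819). The fat list thus held one rise and one fall, with the defining adipocyte genes Adipoq, Lep and Retn at or near 0.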

How the data were processed

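Total RNA of renal cortex (200 ng per sample) went through ribosomal RNA depletion into directional libraries, per the labels' protocols. Base calling with bcl2fastq 2.20.0.422, alignment with STAR and the build GRCm38 are named in the submitters' processing notes; no source used here names the counting tool, the annotation or the strand option, so reads of overlapping or antisense genes may not be separable. The deposited table holds the authors' raw counts per gene for 24 libraries, 6 in each of 4 groups. Of its 48526 gene IDs, 48144 were matched to GENCODE M21 for names, positions and exonic length.

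Counts were filtered with filterByExpr, scaled by TMM and fitted over all 24 libraries with edgeR 4.0.16 in R 4.3.3 (robust quasi-likelihood F test, Benjamini-Hochberg over all 15808 genes tested). CPM are counts divided by the TMM-scaled library size. Fold changes are PMX-53 over vehicle, with the standard error after ±. limma 3.58.1 and DESeq2 1.42.0 gave alternatives, and library properties were compared by two-sided exact permutation tests over 924 divisions of 6 against 6, adjusted over 4 properties. On simulated counts for the comparison in diabetic mice with 200 of 15808 genes changed, 83.3% were recovered at 1.5-fold and 96.9% at 2-fold, with 6 false calls. Far more genes, 4317, were called in the data, so these rates need not hold for the comparison itself. Within groups no 2 diabetic libraries agreed within counting noise (chi-square per degree of freedom at least 5.96 over 30 pairs).

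Genes were named if called: in each direction the 12 with the largest change and the 6 with the smallest p among those at or above 1 in average log2 CPM, then, with no limit on level, up to 5 members of each list by p, some of which are described. C5ar1, C5ar2, Hc, C3, Nnt, Ide, Wdfy1 and Acad10 were always kept. For Nnt, Ide, Wdfy1 and Acad10 the reason was that earlier results had shown the diabetic vehicle libraries apart from all others there. Some genes that the rule names are not reported here. Pdk4 and Gdf15 fall outside this rule and were picked with their values in view. The comparison, gene lists and named members were chosen with earlier results of these data known. Alternatives changed the scaling, filter, test, libraries, replicate block and depth. Promoter windows came from RefSeq tables on GRCm38.p6.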

Additional observations from a re-analysis of the deposited data

Results flagged for a closer look

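Among the 6 libraries of a diabetic group, a single library stood apart for 22 of 280 combinations of a gene or library property and a group by Dixon's ratio of the gap to the range at the 95% level, where chance flags about 1 in 20. Diabetic vehicle replicate 4 lay apart at 0.957 CPM for Col6a6, 1.08 CPM for Col19a1, 123 CPM for Slco1a1, 55.0 CPM for Pzp, 167 CPM for Rdh16, 38.3 CPM for Aldh1a1, 23.8 CPM for Elovl2, 83.5 CPM for Slc9a8, 35.9 CPM for Agt, 32.3 CPM for Mgst3 and 206 CPM for Lpl. Diabetic PMX-53 replicate 2 lay apart at 0.413 CPM for Slc6a12, 43.8 CPM for Col6a3 and 91.8 CPM for Aqp2. Diabetic PMX-53 replicate 6 lay apart at 15.8 CPM for Prlr and 15.7 CPM for Acot3. Diabetic vehicle replicate 2 lay apart at 219 CPM for Sgk1 and 2.42 CPM for Elf5. Diabetic PMX-53 replicate 1 lay apart at 48.3 CPM for Dpp4. Diabetic PMX-53 replicate 4 lay apart at 668 CPM for Oxct1. Diabetic vehicle replicate 1 lay apart at 9.13 CPM for H2-Q7. Diabetic vehicle replicate 3 lay apart at 39.1 CPM for Dnajb9.

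Of 136 genes given in the report with a standard error, 99 passed the interaction test (edgeR quasi-likelihood, adjusted p below 0.05). For these the difference between PMX-53 and vehicle was not the same in diabetic and non-diabetic mice. Over all genes tested the share was 9.42%, but 135 of the 136 had been called in diabetic mice. A trait of the diabetic vehicle mice, which enter this test, cannot be told apart from PMX-53. The values below are the log2 fold change in diabetic mice minus that in non-diabetic mice, with no explanation weighed. Positive differences were 3.50 for Tmprss9, 3.33 for Col6a6, 2.64 for Col19a1, 2.54 for Ces2h, 2.22 for Acad10, 2.05 for Cpxm1, 1.68 for Cyp2d12, 1.91 for Aplnr, 0.77 for Kl, 1.00 for Ide, 1.17 for B4galt5 and 0.49 for Arhgap10. Other positive differences were 0.88 for Pcdh12, 0.56 for C2, 0.43 for Oxct1, 0.40 for Cox15, 0.64 for Slc2a12, 1.12 for Slc22a12, 0.81 for Slc9a8, 0.68 for Col6a3, 0.73 for Col14a1, 1.15 for Col1a1, 0.97 for Lama4 and 0.51 for Smad7. Positive too were 0.76 for Timp3, 0.63 for Kdr, 0.55 for Egfl7, 0.71 for Pdgfrb, 0.76 for Mcam, 1.45 for Cd79b, 1.74 for Igha, 0.92 for Irf8, 0.99 for Cx3cr1, 0.30 for Lrp2, 0.92 for Timd2 and 0.73 for Acsm2. The list went on with 1.86 for Lpl. Negative differences were -5.93 for Ugt1a2, -3.28 for C3, -2.71 for Cyp4a14, -2.70 for Slc7a12, -2.70 for Nccrp1, -3.21 for Ugt1a1, -2.68 for Gc, -2.64 for Bbox1, -2.34 for Prlr, -3.09 for Cebpd, -1.13 for Nnt and -1.26 for Wdfy1. Other negative differences were -0.95 for Rdh16, -0.64 for Glud1, -1.56 for Aldh1a1, -1.20 for Aldoc, -0.55 for Eci1, -0.39 for Hadha, -1.64 for Acot3, -1.20 for Pck1, -0.75 for Pklr, -0.54 for Eno1, -0.39 for Slc6a13 and -1.28 for Slc38a3. Negative too were -0.61 for Car5b, -2.01 for Per1, -2.78 for Ddit4, -1.71 for Sgk1, -1.12 for Tsc22d3, -1.19 for Fosl2, -0.78 for Klf6, -0.70 for Ebp, -0.995 for Elovl2, -0.63 for Elovl6, -0.37 for Mdh1 and -0.33 for Sdhd. Below 0 were also -0.50 for Usmg5, -0.42 for Cox7a2, -0.52 for Pet100, -0.41 for Rpl31, -0.33 for Mrpl20, -1.01 for Slc5a10, -0.86 for Slc5a1, -0.52 for Dpp4, -0.79 for Agt, -0.95 for Prom1, -1.45 for Spp1 and -1.40 for Col12a1. The remaining negative differences were -0.65 for Ddx58, -0.99 for Irf7, -0.75 for B2m, -0.94 for Trf, -0.88 for Apoa2, -1.26 for Cp, -0.65 for Gstm5, -0.92 for Mgst3, -1.38 for Aqp2, -3.27 for Elf5, -0.65 for Ptger3 and -0.49 for Rpph1. Last were -0.61 for Rmrp and -0.65 for Ppp1r15a.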

How the results depend on the processing

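Scaling to library totals only gave 3586 higher and 924 lower genes, with the median of all genes shifted by 0.12, and turned the medians of mitochondrial beta-oxidation to 0.0141, mitochondrial ribosomal proteins to 0.0478 and proteasome subunits to 0.0540. Medians of other lists turned from negative to positive too, such as peroxisomal oxidation, circadian clock and glucose transporters, as given above. A test against a 2-fold difference called 41 genes, 11 higher and 30 lower. The interaction called 2281 genes under limma voom. The other alternatives called 3339 to 4525 genes: DESeq2 size factors, no filter, a stricter filter, DESeq2, limma voom, the 12 diabetic libraries alone, a replicate block, mitochondrial and ribosomal RNA genes removed, and libraries thinned to equal depth. Of 135 called genes given with a standard error, 0 to 4 of those with a value lost their call under these, 5 with library totals only and 113 against 2-fold; 0 reversed. Genes below the filter were not testable at this depth.

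With one library left out, 3507 to 4841 genes were called, 1662 to 2480 higher and 1811 to 2361 lower, and the interaction called 1022 to 2242. The difference (PMX-53 minus vehicle) was -4459630 to -3050180 in total counts, -4.37 to -2.94 percentage points in the mitochondrial share, -3.83 to -2.51 in the ribosomal RNA share and -70.2 to 62.7 in genes detected at equal depth, 1.5 with all libraries, where -7.70, -32.6, -51.3 and -54.1 were further negative values. Without thinning it was -635.5 genes detected (exact permutation p = 0.00866), fewer counts being read on PMX-53. The log2 fold change of C5ar1 was -0.10 to 0.22, with -0.04 and -0.02 the other negative values.

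Replicate numbers did not pair the libraries (correlation of same-numbered deviations -0.05 to 0.11). With the number as a replicate block 3339 genes were called, 1650 higher and 1689 lower, and the interaction called 1344. Under the block 130 of 133 such genes with a value kept their call, the calls of Ces1g, mt-Co1 and Cx3cr1 being lost.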
